A study of Mus musculus with 4 samples.

Results

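Adrenomedullin and its receptor components were followed in macrophages grown from marrow of wild-type (WT) and Hem1 KO mice, which lack Hem1, the protein encoded by Nckap1l. The genes were fixed by name as the peptide genes Adm and Adm2, the receptor gene Calcrl and the accessory protein genes Ramp1, Ramp2 and Ramp3. All 6 were on the array, out of 19505 genes in all, and each had 1 probe set. The group was chosen because Adm was higher in Hem1 KO macrophages, so its values are given as a description, with differences, errors and intervals. The members called in the fit over all genes are only counted, and nothing is read from that count.

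The groups were 2 WT and 2 Hem1 KO cultures, each from a different mouse and each on 1 array. All were femoral marrow cultured 8 days in RPMI that held 10% fetal calf serum and 20% conditioned medium of L929 fibroblasts, a supply of the growth factor CSF1, with no further treatment. The strain, age and sex of the mice and the deleted part of Nckap1l are not given in the sources used here. Values are log2 probe set signals after the RMA method, so a difference of 1 is a doubling of signal, and levels of different genes were not compared.

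Adrenomedullin is a secreted peptide that widens blood vessels, stabilises the endothelial barrier and damps inflammation, and macrophages are among the cells that make it. Its gene is a classic target of hypoxia-inducible factors. The receptor is the membrane protein CALCRL, a class B receptor that reaches the cell surface and binds its ligand only together with a RAMP protein. With RAMP2 or RAMP3 it is an adrenomedullin receptor, and with RAMP1 it is the receptor for calcitonin gene-related peptide (CGRP). Adm2 encodes intermedin, a related peptide that acts through the same receptors. Binding activates the Gs protein and raises cyclic AMP (cAMP).

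Adm is the gene with the large difference here, so the sequence before its start is shown. These are the 250 bases upstream of the gene's start in RefSeq (GRCm38.p6, chr7:110627407-110627656, plus strand), 5′ to 3′, with 3 motif matches in capitals:
Adm: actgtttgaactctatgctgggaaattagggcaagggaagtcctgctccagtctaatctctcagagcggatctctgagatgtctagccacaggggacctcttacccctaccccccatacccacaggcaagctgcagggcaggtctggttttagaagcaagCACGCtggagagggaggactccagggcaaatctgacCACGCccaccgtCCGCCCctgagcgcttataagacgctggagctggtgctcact
The first pair of capital runs is GCGTG, 1 form of the core that hypoxia-inducible factors bind, read on the minus strand at 90 to 86 and at 54 to 50 bases before the start. The third is the GC box GGGCGG, also on the minus strand, at 42 to 37 bases. Of the 32851 promoters in the table, 28.2% hold GCGTG and 32.7% hold GGGCGG on either strand within the same 250 bases. The other 5 motifs searched on both strands, ACGTG (in 16.6% of promoters), TGACG (17.8%), the full cAMP element TGACGTCA that contains it (1.55%), TGANTCA (6.75%) and TATAAA (12.4%), do not occur in this window. Of the other members, 4 have a promoter in the table: that of Ramp3 has GCGTG at 2 places and GGGCGG at 3, that of Calcrl has GGGCGG once, and those of Adm2 and Ramp1 have none of the 7 motifs. The matches describe letters only.

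Adm, the adrenomedullin gene itself, was 14.4-fold higher in Hem1 KO than in WT macrophages, while the genotypes overlapped for Adm2, Calcrl and the RAMP genes. Adm read 7.27 and 5.44 in the WT cultures (replicates 1 and 2) against 10.81 and 9.60 in the Hem1 KO cultures. Both Hem1 KO arrays lay above both WT arrays, and the gap between the nearest arrays was 2.33. As background served, array by array, the 95th percentile of the signals of taste, vomeronasal and olfactory receptor genes, which lay between 5.38 and 6.04. WT replicate 1 was 1.40 above that level and WT replicate 2 was 0.07 below it, whereas the Hem1 KO arrays were 4.77 and 4.22 above it.

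The log2 difference of Adm, Hem1 KO minus WT, was 3.85 (SE 0.53 from limma, n = 2 per genotype), the rank of 5 from the top among the 19505 genes. Its replicates were also far apart, by 1.83 in WT and 1.21 in Hem1 KO, and 99.4% of genes had a smaller spread within genotypes. Over the 4 pairings of a Hem1 KO with a WT array the difference ran from 2.33 to 5.38. Leaving out WT replicate 2 gave 2.94, and leaving out WT replicate 1 gave 4.77.

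**Figure D1:**
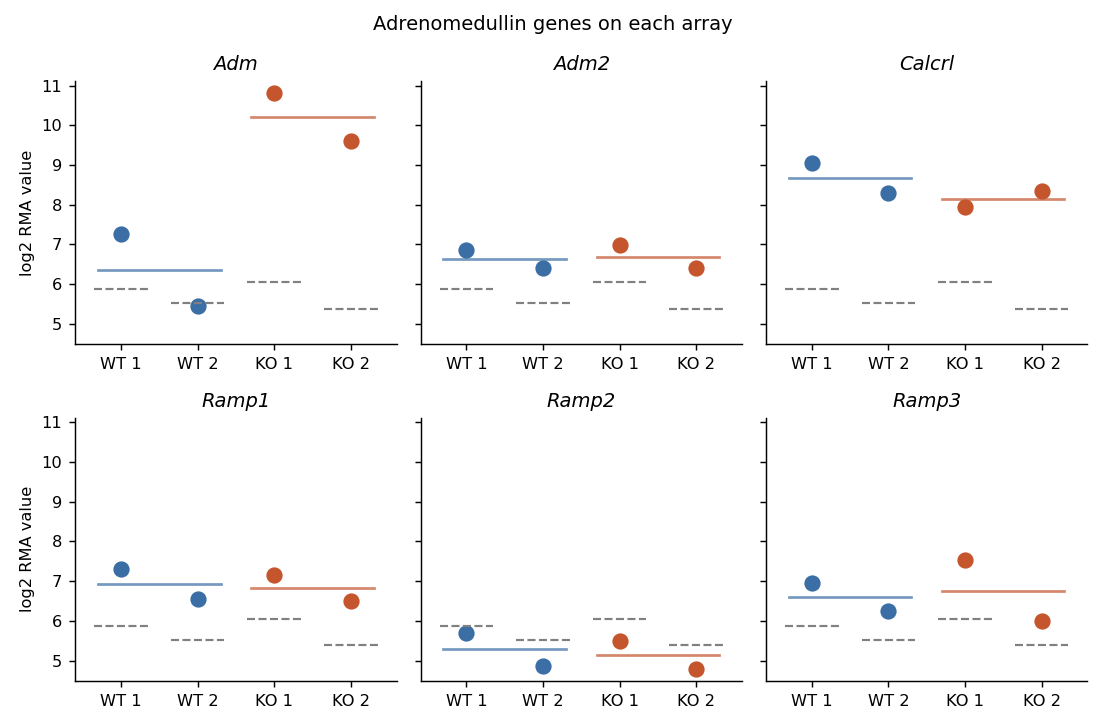
Log2 RMA value of each member on the 4 arrays (points; WT blue, Hem1 KO orange), with the mean of each genotype (solid line) and the background of each array (dashed). Adm stands at 10.81 and 9.60 on the Hem1 KO arrays against 7.27 and 5.44 on the WT arrays, and Ramp2 lies under background on all 4.

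Adm2, the gene of the related peptide intermedin, did not share the pattern. It read 6.87 and 6.39 in the WT cultures against 6.98 and 6.40 in the Hem1 KO cultures, so that replicate 1 was the higher one in both genotypes and the genotypes interleaved. The log2 difference was 0.06 (SE 0.34, 95% interval -0.67 to 0.80), and its sign turned to -0.04 when the arrays were centred on their medians and to -0.03 after quantile normalization. Relative to each array's background, Adm2 stood between 0.88 and 1.02 above it on all arrays.

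Calcrl, the receptor that all RAMP proteins serve, was well above background in both genotypes. It read 9.05 and 8.30 in the WT cultures against 7.95 and 8.35 in the Hem1 KO cultures. The genotypes overlapped by 0.05, with Hem1 KO replicate 2 just above WT replicate 2. The log2 difference was -0.53 (SE 0.35, 95% interval -1.28 to 0.23), between -0.90 without WT replicate 2 and -0.15 without WT replicate 1. The interval reaches from a drop beyond 2-fold to a slight increase, so that the arrays do not show whether receptor RNA differed.

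Ramp1, whose protein turns CALCRL into the CGRP receptor, read 7.31 and 6.55 in the WT cultures against 7.16 and 6.49 in the Hem1 KO cultures. Replicate 1 was the higher one in both genotypes, and the log2 difference was -0.10 (SE 0.37, 95% interval -0.89 to 0.68). It was above background by 1.04 to 1.43 on all arrays.

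Ramp2, whose protein makes the main adrenomedullin receptor of endothelial cells, read 5.70 and 4.86 in the WT cultures against 5.50 and 4.79 in the Hem1 KO cultures. All 4 values lay below background, by 0.17 to 0.66, so no fold is given. Ramp3, the accessory protein of the second adrenomedullin receptor, read 6.96 and 6.26 in the WT cultures against 7.53 and 5.99 in the Hem1 KO cultures. The Hem1 KO arrays were the highest and the lowest of the 4, and the log2 difference was 0.15 (SE 0.45, 95% interval -0.82 to 1.13). It turned to -0.62 without Hem1 KO replicate 1 and was 0.92 without Hem1 KO replicate 2.

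**Figure D2:**
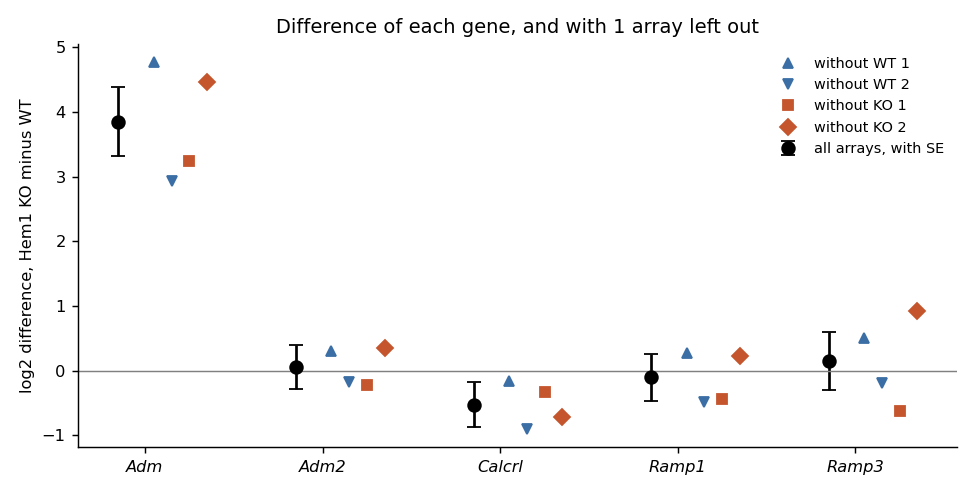
Log2 difference, Hem1 KO minus WT, of each member above background with all arrays (black, bars are limma's SE) and with 1 array left out (coloured symbols). Adm stays between 2.94 and 4.77 and Calcrl between -0.90 and -0.15, while the other 3 genes fall on both sides of 0. Ramp2, below background throughout, is not drawn.

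Of the 6 members, 1, Adm, had an adjusted p under 0.05 in the limma fit over all genes, where 1.61% of genes did (1.48% higher and 0.133% lower). The same 1 of 6 had no overlap between the genotypes, against 25.8% of all genes. Since Adm was chosen on this contrast, nothing is read from either count. The median difference of the members was -0.02, and that of all genes was 0.01.

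The cultures carried the markers of macrophages, and stromal genes differed beside Adm. The 9 measured macrophage markers, such as the CSF1 receptor Csf1r, lysozyme Lyz2 and the complement gene C1qa, were above background on every array, with a list mean of 11.54 or more. None of the 9 was called by limma, and 1 had an unadjusted p under 0.05, as did 5.2% of all genes. Of the 9, 8 had a difference under 0 and 6 were lower without overlap, where 13.3% of all genes were; the median was -0.30, with Csf1r at -0.30, Lyz2 at -0.17 and C1qa, the highest, at 0.03. Of 10 stromal markers 6 rose, where limma called 1.48% of all genes higher, and none fell, with a median difference of 1.85. Their mean level was 6.89 and 6.44 in the WT cultures against 8.40 and 7.83 in the Hem1 KO cultures. Among them Pdgfrb, a growth factor receptor of mesenchymal cells, rose 5.14-fold (log2 difference 2.36, SE 0.31, adjusted p = 0.00197 by limma). The stromal markers Lum, Lepr and Thy1 lay below background on all arrays and were named after their values were seen. Which cells held the Adm transcript, and the part of stromal cells in its level, was not tested. In such bulk RNA more cells of a type and more RNA per cell cannot be told apart.

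Of 10 smooth muscle and pericyte markers 2 rose (median difference 0.51): the calponin Cnn1, 7.48-fold, and the actin-binding Tagln, 3.17-fold. Mcam was not called (1.25, adjusted p = 0.114 by limma). Of the 10, 8 had a difference above 0 and 2 below, and 5 were higher without overlap, where 12.5% of all genes were. Myh11, Des and Abcc9 lay below background on all arrays. Of 7 osteoblast markers 2 rose (median 0.68): bone sialoprotein, Ibsp, at least 8.61-fold, and Col1a1, 3.92-fold, which is also among the 6 stromal markers that rose. Bglap2 (0.04) and Bglap (-0.03) were not called, and Dmp1 lay below background on all arrays. Sp7 lay below background on both WT arrays and above it on both Hem1 KO arrays. It was at least 1.34-fold higher but not called (adjusted p = 0.169 by limma). Of the 7, 6 had a difference above 0, and 4 were higher without overlap, where 12.5% of all genes were. Cnn1, Tagln, Ibsp and Col1a1 were called by limma, where 1.61% of all genes were. Ibsp, Sp7, Dmp1, Myh11, Des and Abcc9 were named after their values were seen. The part of the 4 called genes in the Adm level was not tested either.

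Of 13 endothelial markers, listed because CALCRL and RAMP2 are abundant in endothelium, 1 rose: Cdh5, VE-cadherin, which lay below background on both WT arrays and was at least 1.86-fold higher (adjusted p = 0.00622 by limma; named after its values were seen). The call of Cdh5 ended after quantile normalization (adjusted p = 0.0738). Other endothelial markers, Kdr (0.01), Tie1 (-0.12) and Esam (0.33), were not called. Robo4, an endothelial guidance receptor, also lay below background on both WT arrays and above it on both Hem1 KO arrays (at least 1.31-fold, adjusted p = 0.129 by limma, not called; named after its values were seen). Limma called 7.69% of the endothelial list and 1.61% of all genes. The endothelial list's median difference was 0.12, and 2 of its genes (15.4%) had an unadjusted p under 0.05, where 5.2% of all genes did. Of 9 mast cell and basophil markers 1 rose, Mcpt8 (11.1%, where 1.61% of all genes were called). Limma called none of 6 lymphatic, 6 adipocyte, 7 neutrophil, 7 lymphoid and 5 megakaryocyte and erythroid markers. At an unadjusted p under 0.05 was 1 of these 31, the adipocyte and macrophage lipid carrier Fabp4. Fabp4 was lower in Hem1 KO (-1.34, SE 0.41, adjusted p = 0.24 by limma).

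The targeted gene, Nckap1l, was lower in Hem1 KO macrophages (11.37 and 11.11 in WT, 10.04 and 9.62 in Hem1 KO) but not near background. Its call (adjusted p = 0.0467 by limma) was lost without any 1 of 3 arrays, with an adjusted p of 0.381 after leaving out WT replicate 1, 0.128 after WT replicate 2 and 0.0874 after Hem1 KO replicate 2, and also when dim genes were left out (0.0868). Probes outside the deleted part would not check the labels.

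The genes whose values over the 4 arrays lay closest to those of Adm came from several functions. Each gene's log2 values were centred on its own mean, and the root mean square distance to Adm was taken over the 4 arrays among 13064 genes above background on at least 2 of them. Closest were Grb10, an adaptor of insulin-type receptors (distance 0.45), the calcineurin regulator Rcan2 (0.50), the actin bundler Fscn1 (0.50), Pappa, a protease of IGF-binding proteins (0.50), the matrix proteoglycan Ogn (0.51) and the granule protease Mcpt8 (0.51). All 6 were picked for a likeness that includes the genotype difference, so their own differences, from 3.02 for Fscn1 to 4.24 for Mcpt8, are a description.

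Of these 7 genes Adm had the widest gaps within genotypes. WT replicate 1 was above WT replicate 2 for Adm (by 1.83) and for all 6 genes, most for Fscn1 (1.59) and Grb10 (1.23) and least for Rcan2 (0.65). Hem1 KO replicate 1 was likewise above replicate 2, by 1.21 for Adm and by 0.93 for Rcan2 at most and 0.17 for Ogn at least among the 6. Replicate 1 was also the brighter array over all genes tested, with medians of 6.82 against 6.42 in WT and 6.95 against 6.49 in Hem1 KO. Rcan2 lay below background on both WT arrays, so its WT gap is between dim values. It was at least 5.9-fold higher in Hem1 KO. None of the 6 matched the full range of Adm on WT replicate 2, where Adm stood at -2.84 from its own mean and the others at -2.46 to -2.00 from theirs. Among the members above background on 2 or more arrays, the distance to Adm was 1.90 for Ramp3, 1.97 for Adm2, 2.02 for Ramp1 and 2.29 for Calcrl.

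**Figure D3:**
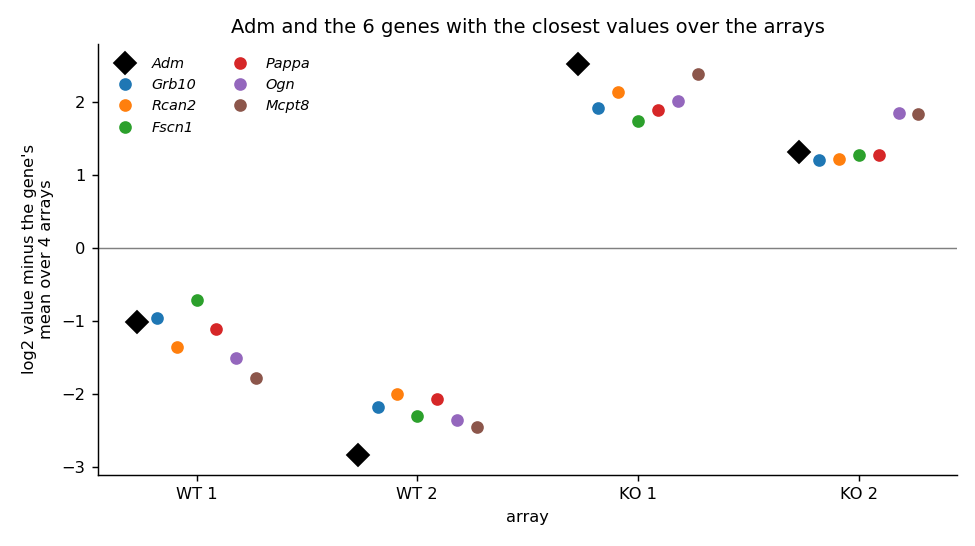
Log2 value minus the gene's mean over the 4 arrays, for Adm (black diamonds) and the 6 genes closest to it. All 7 are under their mean on both WT arrays and over it on both Hem1 KO arrays, and Adm has the lowest point, -2.84 on WT replicate 2.

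Over 8 lists of related genes, 137 genes were measured once each, and limma called 3 higher and 1 lower, 2.92% of them against 1.61% of all genes. At an unadjusted p under 0.05 were 14 of the 137, and 1015 of the 19505 genes in all. The median difference of the 137 was 0.08. The median of the stromal markers was 1.85 beside the genes that rose here, and their part was not tested.

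Of the ligands and receptors nearest to the members, none passed. The CGRP gene Calcb (0.30) and the amylin gene Iapp (-0.04), 2 ligands of the family, were not called, and none of the 2 had an unadjusted p under 0.05. Iapp lay below background on all arrays. Of 4 receptor genes, none was called by limma and none had an unadjusted p under 0.05. They include Ackr3, a scavenging receptor that takes up adrenomedullin, which read 6.10 and 5.29 in WT against 6.75 and 6.11 in Hem1 KO (0.73, SE 0.37), and Gpr182 (0.19), once proposed as an adrenomedullin receptor. The calcitonin receptor gene Calcr lay below background on all arrays and was named after its values were seen.

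Among 10 genes that process, bind or break down peptides, 1 rose and none fell (10%, where limma called 1.61% of all genes). At an unadjusted p under 0.05 were 2 (20%, against 5.2% of all genes). The gene that rose was Mme, the membrane protease neprilysin, which cleaves adrenomedullin among other peptides. Mme read 4.73 and 4.52 on the WT arrays, both below background, and 7.85 and 6.20 on the Hem1 KO arrays, both above it. It was at least 2.51-fold higher in Hem1 KO (fitted log2 difference 2.40, SE 0.45, adjusted p = 0.0123 by limma). Its fitted difference was 1.58 without Hem1 KO replicate 1, and the call ended when dim genes were left out (adjusted p = 0.103). With Hem1 KO replicate 2 left out, 2 genes of the list were called higher. Pam, the enzyme that adds the terminal amide adrenomedullin needs, stood at 11.16 and 10.76 in WT against 11.05 and 10.89 in Hem1 KO, with a difference of 0.01 (SE 0.32). The convertase gene Furin was at -0.02 (SE 0.35). Pam and Furin were named after their values were seen.

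Downstream of the receptor, limma called 0 of 31 genes of Gs and cAMP signalling, with a median difference of -0.01. At an unadjusted p under 0.05 were 3 genes (9.68%, against 5.2% of all genes). The adenylyl cyclase gene Adcy2 had the smallest p and read 6.05 and 6.26 in WT against 7.17 and 7.66 in Hem1 KO, without overlap (1.26, SE 0.33, adjusted p = 0.0967 by limma). Adcy2 passed without Hem1 KO replicate 1 (adjusted p = 0.0143). Adcy6, another cyclase, was at 0.99 (SE 0.33, adjusted p = 0.329 by limma). With Hem1 KO replicate 1 left out, the list had 1 gene called higher and 1 called lower.

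CREB factors and genes that respond to cAMP were not called either: 0 of 17, with 0 at an unadjusted p below 0.05 by limma and -0.15 as the list's median. Nr4a1, an early response gene, read 8.42 and 6.54 in WT against 9.34 and 7.39 in Hem1 KO, and the genotypes overlapped (0.89, SE 0.61). The replicates of Nr4a1 differed by more than the genotypes did. Its difference was 1.83 once WT replicate 1 was dropped, and dropping Hem1 KO replicate 2 gave 1.86. It was -0.06 when WT replicate 2 was dropped and -0.09 when Hem1 KO replicate 1 was. Such fits gave all named genes the same SE, so calls in them do not use a gene's own spread. Thbs1, the matrix protein thrombospondin, was at 0.67 (SE 0.43) and was called when the prior followed intensity (adjusted p = 0.00083 by limma), where the list had 1 gene higher and 1 lower. With Hem1 KO replicate 2 left out, limma called 3 of the 17 higher, with WT replicate 1 left out 1 higher, and with Hem1 KO replicate 1 left out 1 lower.

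Adm is a known target of the hypoxia response, and 26 other genes of that response were measured. Of these, all above background on all arrays, 1 rose and none fell (3.85%, where limma called 1.61% of all genes), with a median difference of 0.19. At an unadjusted p under 0.05 were 3 of the 26 (11.5%, against 5.2% of all genes). Of the 26, 7 were higher and 3 lower without overlap, where 12.5% and 13.3% of all genes were. P4ha2, a collagen prolyl hydroxylase, was at 1.44 (SE 0.37, adjusted p = 0.0945 by limma; named after its values were seen). The riser was Epas1, which encodes the hypoxia-inducible factor HIF-2 alpha. It read 6.73 and 7.22 in the WT cultures against 9.10 and 8.55 in the Hem1 KO cultures, 3.61-fold higher (1.85, SE 0.34, adjusted p = 0.0113 by limma). Without WT replicate 1 the call of Epas1 ended (log2 difference 1.61), and the list had 3 calls when the prior followed intensity.

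Of 35 other vasoactive peptide genes and receptors, 1 rose and 1 fell (5.71%, where limma called 1.61% of all genes). The median difference was 0.06, with 22 genes above 0 and 13 below. At an unadjusted p under 0.05 were 5 (14.3%, against 5.2% of all genes). Apln, the gene of the vasodilator peptide apelin, read 6.44 and 5.71 in WT against 8.23 and 7.61 in Hem1 KO, 3.59-fold higher (1.84, SE 0.36, adjusted p = 0.0171 by limma). Npy, the gene of the vasoconstrictor neuropeptide Y, read 10.11 and 9.34 in WT against 7.30 and 8.16 in Hem1 KO, 3.99-fold lower (adjusted p = 0.0141 by limma). Both were above background on all arrays. The call of Apln was lost when WT replicate 2 was left out (log2 difference 1.48). That of Npy was lost when WT replicate 1 was left out (-1.61). Leaving out dim genes ended both calls (0.0787 for Apln and 0.0836 for Npy), and quantile normalization ended that of Npy (0.0835). The list gained calls too, with 3 genes higher after centring, after quantile normalization, with the replicate number as a block and when the prior followed intensity. Npr3 (1.56, adjusted p = 0.0549 by limma) and Npr2 (1.45, adjusted p = 0.0856 by limma) were not called. Both were named after their values were seen.

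Of the 13 other class B1 peptide receptors, the family of CALCRL, limma called none, and 7 lay below background on all arrays. At an unadjusted p under 0.05 was 1 (7.69%, against 5.2% of all genes). The smallest p was that of the parathyroid hormone receptor Pth1r (0.89, SE 0.36), which was above background on 1 array. Its difference was 1.36 without Hem1 KO replicate 2 and 0.41 without Hem1 KO replicate 1. Crhr1, a receptor for corticotropin-releasing hormone, was below background throughout.

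**Figure D4:**
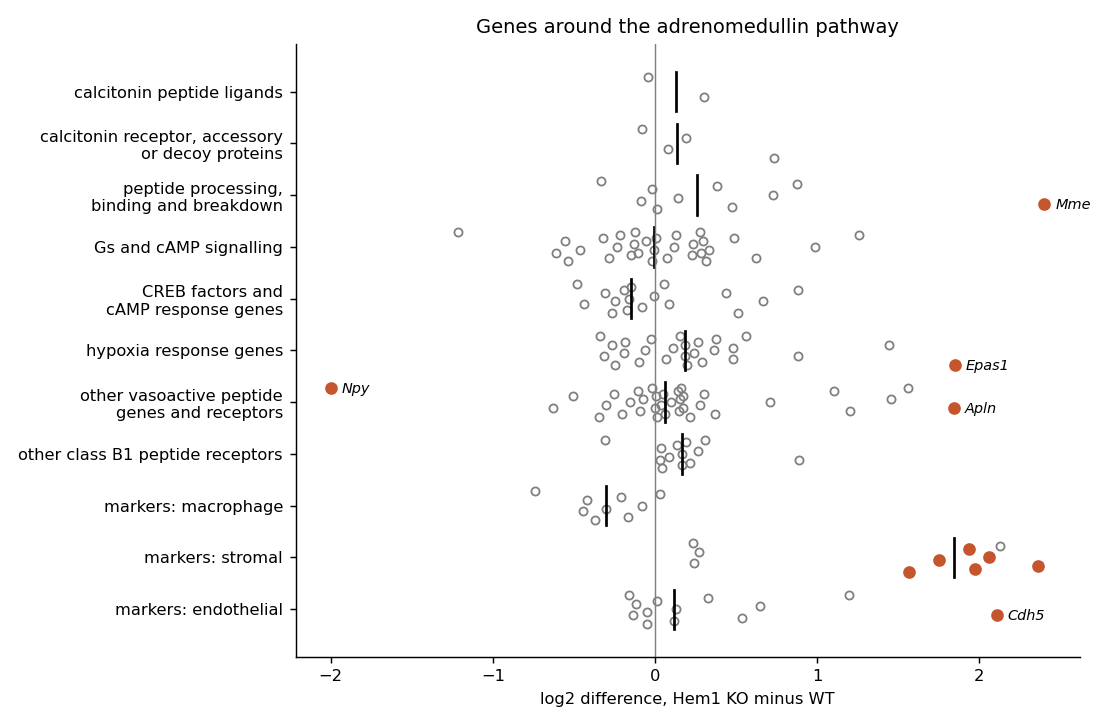
Log2 difference, Hem1 KO minus WT, of each measured gene in the 8 lists around the pathway and in 3 marker lists (filled orange, adjusted p under 0.05 by limma; open, not called; black line, list median). Mme, Epas1 and Apln lie to the right and Npy to the left, while the stromal markers have a median of 1.85.

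Genes beside Adm did not pass the test. Of the 5 measured genes on each side of Adm in RefSeq order on chromosome 7, limma called none, with 0 at an unadjusted p under 0.05, and their differences ran from -0.27 for the kinase gene Wee1 to 0.31 for Lyve1, a hyaluronan receptor gene. The adjacent genes Sbf2 (-0.05) and Ampd3 (0.18) were well above background on all arrays. Around all 6 members, 1 of 60 neighbours was called, where 1.61% of all genes were. This was Fam171b, which lies near Calcrl on chromosome 2 and read 6.06 and 5.97 in WT against 7.64 and 7.44 in Hem1 KO (1.53, SE 0.31, adjusted p = 0.0227 by limma). Next to Calcrl on its other side, Tfpi, an inhibitor of blood coagulation, read 7.92 and 7.62 in WT against 6.82 and 6.91 in Hem1 KO (-0.90, SE 0.31, adjusted p = 0.419 by limma). Fam171b, Tfpi, Wee1, Lyve1, Sbf2 and Ampd3 were named after their values were seen.

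**Figure D5:**
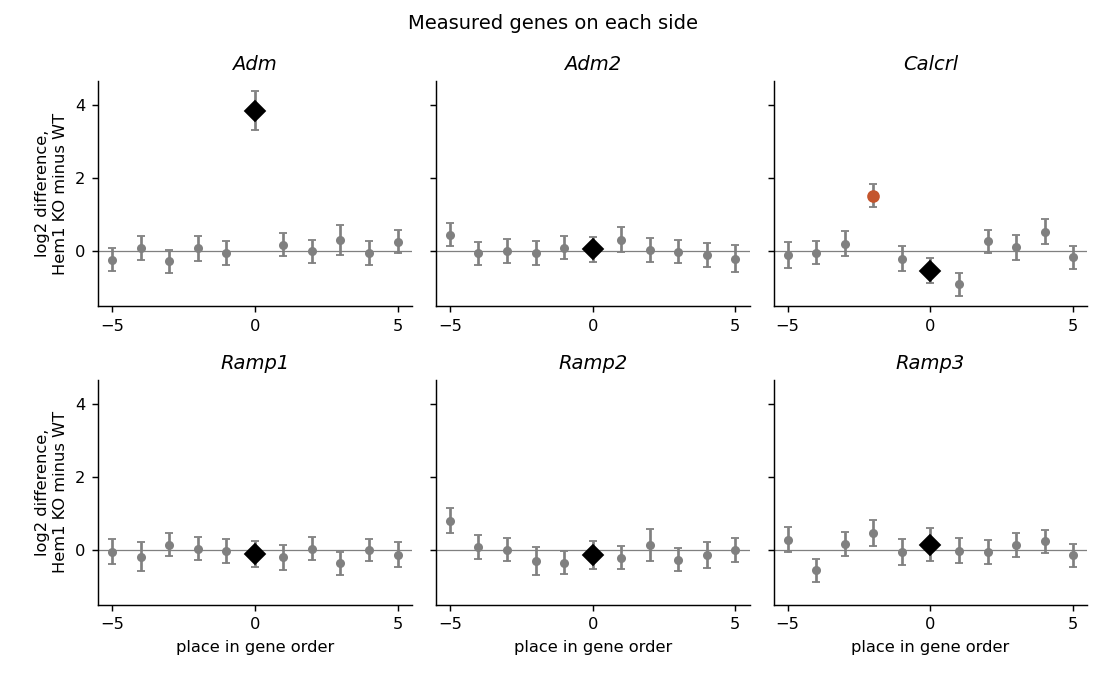
Log2 difference, Hem1 KO minus WT, of each member (black diamond, place 0) and of the 5 measured genes on each side of it in RefSeq gene order (grey, bars are limma's SE; orange, called). Adm stands at 3.85 beside neighbours between -0.27 and 0.31.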

How the data were processed

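RNA of 2 WT and 2 Hem1 KO macrophage cultures was measured on Affymetrix arrays. The deposited values are on the log2 scale, as read from their range. Per the submitters' processing notes the authors used RMA, whose version and settings are not given in the sources used here, nor is the genome build of the arrays. The array medians differ (6.08 to 6.63), and the values were used as deposited. The number of arrays limits the precision.

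Probe sets were named through the platform annotation: 19572 name 1 gene, 0 name several, and the rest of the 29129 were left out. The brightest probe set was kept for each of 55 genes with more than 1, which left 19505 genes. The test was limma's (version 3.58.1, under R 4.3.3; eBayes after lmFit, genotype only, two-sided, Benjamini-Hochberg over all genes, called at an adjusted p under 0.05). The code of the fit was also run on simulated arrays with large known changes and independent noise, which does not check the calls made here. An exact permutation test of 2 against 2 arrays cannot give a p under 0.333. Where a gene lay at or below background on both arrays of 1 genotype only, "at least" marks a bound: the dim arrays enter at background (from 1448 chemosensory genes) or at their own value if that is higher.

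The members, gene lists and rules were chosen with earlier results of these data known. Named are the members, Nckap1l, the 6 genes closest to Adm, the called members of the 8 pathway lists (the 2 with the smallest p where none was called) and up to 3 bright genes of a marker list; others are marked as named after their values were seen. The lists hold calcitonin peptides, their receptors, peptide processing, Gs and cAMP signalling, CREB and cAMP response, hypoxia, vasoactive peptides, class B1 receptors and markers of 11 cell types. Sequences came from RefSeq (GRCm38.p6), and no array coordinates are given. The alternatives left out each array, blocked on the replicate number, centred or quantile normalized the arrays, left out dim genes, let the prior follow intensity, averaged probe sets, tested all probe sets and controls, or changed the background; the 99th percentile was chosen after seeing the data.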

Additional observations from a re-analysis of the deposited data

How the results depend on the processing

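With 1 array left out in turn the log2 differences ran from 2.94 to 4.77 for Adm, from -0.23 to 0.35 for Adm2, from -0.90 to -0.15 for Calcrl, from -0.48 to 0.27 for Ramp1 and from -0.62 to 0.92 for Ramp3. Centring the arrays lowered every difference by 0.10. Of 24 pairs of a member and an array, 19 were above background, 18 at the 99th percentile of the chemosensory genes, and 5 at the 95th percentile of the array's negative controls (2 of Adm, both Hem1 KO, and 3 of Calcrl), which reach 8.04 to 8.94; Adm2, Ramp1 and Ramp3 lie below that stricter level on all arrays.

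Over all genes, 288 were called higher and 26 lower. With 1 array left out the counts ran from 185 to 545 higher and from 26 to 101 lower. Leaving out dim genes gave 174 and 8, the replicate number as a block 620 and 199, centring 400 and 70, quantile normalization 314 and 16, and a prior that follows intensity 409 and 205, which moved the share of higher calls from 91.7% to 66.6%. Of 237 values of single named genes under the alternatives, 217 kept their side of the threshold, 12 lost the call, 8 gained it and 0 called values changed sign. These values cover the genes named from the pathway lists or for likeness to Adm, and Nckap1l, Cdh5, Col1a1 and Pdgfrb. Other named genes, such as Cnn1, Tagln, Ibsp and Fam171b, were not counted there. The replicate numbers mark no stated pairing. The deviations of same-numbered arrays correlated at 0.241 across genes, and the block cannot move a difference in this balanced design. Under it Adcy2 (adjusted p = 0.00175), Adcy6 (0.0141) and Nr4a1 (0.0268) were called, and the Gs and cAMP list had 2 higher and 1 lower. In the fits with 1 array left out, all named genes had the same SE. It was 0.50 without a WT array and 0.40 without a Hem1 KO array. Calls there follow the size of the difference and do not use a gene's own spread.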
